A study of Mus musculus with 18 samples.

Results

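RNA of the nuclei and RNA of the cytoplasm of single muscle fibers from the mouse tibialis anterior (TA), a fast muscle at the front of the lower leg, were set against each other on expression arrays. The comparison used 6 of the 18 arrays of the series, 3 of nuclear RNA and 3 of cytoplasmic RNA, chosen because their labels name the TA and the fraction; the other 12 arrays hold the same fractions of extensor digitorum longus (EDL) and soleus fibers. All animals were CD1 females of 3 months, and no treatment, transgene or deletion is named for any group. Each array held a pool of 5 to 10 fibers that were freed with collagenase, picked intact and lysed with detergent, after which a slow spin separated the nuclei from the cytoplasm.

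A muscle fiber is a single cell that carries many nuclei in 1 shared cytoplasm. RNA is made and spliced in the nuclei, and most messenger RNA is then exported to be translated. Some long non-coding RNAs (lncRNAs) stay in the nucleus for good, and Malat1 (found in nuclear speckles, where splicing factors gather) and Neat1 (the scaffold of paraspeckles) are the best known of these. Others leave the nucleus and act in the cytoplasm. In bulk fractions of this kind, fewer cells of a type and less RNA per cell cannot be told apart. Each array gives what a transcript makes up of the RNA of its fraction, not the number of molecules per fiber.

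The groups of 3 were not alike in origin or in spread. The nuclear pools came from 1 mouse each. TA cytoplasm 1 and TA cytoplasm 2 each held fibers of a pair of mice, had 1 mouse in common, and each also shared a mouse with the nuclear pool of the same number, and TA cytoplasm 3 came from a further mouse. The p-values below therefore measure the spread between these pools. TA nuclei 1 to 3 and TA cytoplasm 2 lay on the same slide, TA cytoplasm 3 lay on another slide scanned the same day, and TA cytoplasm 1 lay on the slide of the EDL and soleus cytoplasm. Between 78.9% and 89.3% of the spots of a TA array gave a significant positive signal. The nuclear arrays correlated with each other at 0.98 to 0.99 and the cytoplasmic arrays at 0.92 to 0.97 (Pearson's r across probes). The median standard deviation of a probe over the 3 arrays was 0.164 in nuclei and 0.416 in cytoplasm on the log2 scale.

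Before any fraction is compared, 5 of the 6 TA arrays stood apart from the rest of the series. TA nuclei 1 to 3, TA cytoplasm 2 and TA cytoplasm 3 gave 142 of 35528 probes a level more than 2 log2 units above all 13 other arrays, TA cytoplasm 1 included, and 2 probes a level as far below them. The 142 probes belonged to 139 genes, among them genes of dividing cells and genes of developing muscle. Ccna2, a cyclin of S phase and mitosis, measured 2.36, 9.34 and 10.15 in TA cytoplasm 1, 2 and 3 and 8.51, 9.25 and 9.71 in TA nuclei 1, 2 and 3 (log2 intensity), against at most 4.47 on any EDL or soleus array with a value (the 3 EDL cytoplasm arrays had none). Rrm2, a subunit of ribonucleotide reductase, measured 4.11, 10.24 and 11.08 in cytoplasm and 9.25, 9.72 and 10.01 in nuclei. In both genes TA cytoplasm 1 lay with the EDL and soleus arrays and the remaining 5 TA arrays lay together. Myh3, the embryonic myosin heavy chain, measured 3.98, 12.39 and 9.76 in cytoplasm and 11.46, 11.37 and 12.12 in nuclei, and at most 8.97 elsewhere. The gap of Myh3 was under 2 log2 units, and Ccna2 had no value on some arrays. These probes of Ccna2 and Myh3 were therefore not among the 142. Cdh15, the M-cadherin of satellite cells and fusing myoblasts, measured 6.60, 12.53 and 11.55 in cytoplasm and 12.12, 11.88 and 12.19 in nuclei, and at most 7.00 elsewhere.

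In a list of 28 measured cell cycle genes written after these values were seen, 3 lay more than 2 log2 units above all other arrays with a value and 11 lay above them by any gap, as did 2214 of the 35528 probes (6.23%), and the summed level ran from 9452 to 27170 on the 5 arrays and from 3502 to 11298 on the others (linear intensity). Of 13 genes of developing muscle, listed in the same way, 3 lay more than 2 units above and 6 by any gap, with sums of 24290.2 to 56637 against 20530.1 to 35974. The 142 probes were chosen with TA cytoplasm 1 more than 2 log2 units below TA cytoplasm 2 and 3, which widens their cytoplasmic spread. That none of them passed the test between fractions in TA was largely set by this choice and is not a result about them. Their median difference in that test was 1.00 on the log2 scale. Without TA cytoplasm 1 that median was -0.35, with 0 of the 142 past the threshold toward nuclei and 24 toward cytoplasm. The part of these genes in the other results was not tested. The value without TA cytoplasm 1 is given beside each called difference and each list median that it moved by over 1.5 times or turned in sign.

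**Figure D1:**
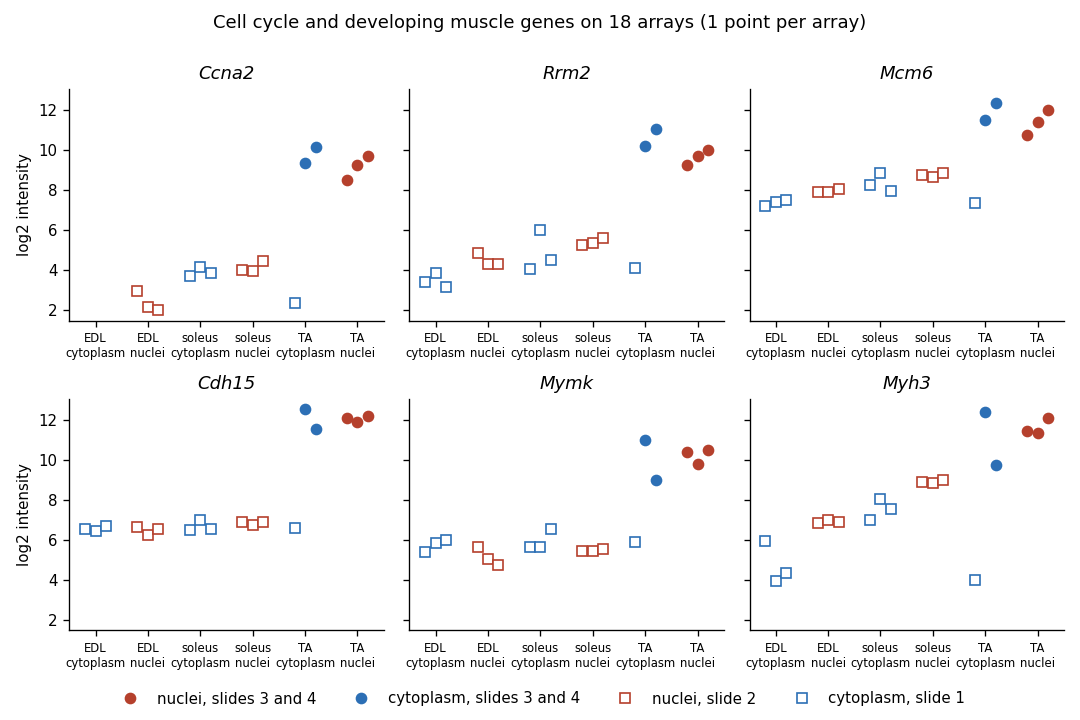
Log2 intensity (y axis) of Ccna2, Rrm2, Mcm6, Cdh15, Mymk and Myh3 on 18 arrays, ordered by muscle and fraction (x axis). Filled points are the 5 TA arrays of the slides scanned last, and they lie above every open point drawn, TA cytoplasm 1 included. For Ccna2 no EDL cytoplasm array passed the spot filter, so 10 other arrays are drawn there.

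Fiber type markers were set against the other muscles, on the same probes. The summed level of 6 slow-fiber genes was 1535 to 14346 in TA cytoplasm, 4910 to 11795 in EDL cytoplasm and 87774 to 128525 in soleus cytoplasm (linear intensity). In nuclei these sums were 9479 to 12271 in TA, 13993 to 15349 in EDL and 136475 to 143287 in soleus, so the TA arrays lay far below the slow soleus. The sum of 10 fast-fiber genes was 151437 to 214170.3 in TA cytoplasm, which overlapped the 136620 to 164386 of soleus cytoplasm. In TA nuclei this sum was 247591 to 281437, above the 189271 to 200370 of soleus nuclei. EDL lay above TA in both fractions, at 239330 to 262444 in cytoplasm and 282625 to 325467 in nuclei. Markers of other cells of muscle were present, and the sums of some of them differed between fractions. Endothelial markers summed to 3182 to 4140 in cytoplasm and 7222 to 7856 in nuclei, with 5 of 7 higher in nuclei past the threshold, where 14.7% of all genes were higher in nuclei and 31.1% in cytoplasm. Fibroblast markers summed to 19560 to 29877 and 37900 to 41419 (4 of 6), and pericyte and smooth muscle markers to 918 to 14550 and 14635 to 21622 (3 of 4). Schwann cell markers summed to 291 to 417 in cytoplasm and 677 to 762 in nuclei (4 of 5 higher in nuclei, 1 in cytoplasm). The sum of macrophage and leukocyte markers went the other way, from 3982 to 7190 in cytoplasm to 2627 to 2859 in nuclei. Most of this sum came from the Csf1r probe alone. Of these 6 markers 2 were higher in cytoplasm, a share near that of all genes, 3 did not pass the test and 1 was not tested. Satellite cell markers summed to 135 to 6022 in cytoplasm, a range that held the 3868 to 4810 of nuclei, and Calcr was not well above background. Most of this sum came from Cdh15, a gene of the arrays that stood apart. The part of these cells in the differences between fractions was not tested.

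The 60-base probes below carry the results on lncRNAs that follow. Each sequence stands in the scanner files, 5′ to 3′, at the given place in build mm9 and on the given strand. The first set covers Malat1 and Neat1, and the capitals mark the 30 bases that a probe named Neat1 and a probe named NEAT1 have in common.
Malat1 forward region, chr19:5797294-5797353, plus strand: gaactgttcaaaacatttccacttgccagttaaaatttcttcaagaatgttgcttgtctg
Malat1, chr19:5795713-5795772, minus strand: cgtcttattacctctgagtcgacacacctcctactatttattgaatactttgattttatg
Malat1 reverse region, chr19:5798256-5798315, minus strand: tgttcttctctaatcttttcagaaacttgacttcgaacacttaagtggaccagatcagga
Neat1, chr19:5842564-5842623, minus strand: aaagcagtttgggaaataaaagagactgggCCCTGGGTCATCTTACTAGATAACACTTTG
NEAT1, chr19:5842534-5842593, minus strand: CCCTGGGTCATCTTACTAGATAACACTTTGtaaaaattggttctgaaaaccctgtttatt
Neat1 forward region, chr19:5842428-5842487, plus strand: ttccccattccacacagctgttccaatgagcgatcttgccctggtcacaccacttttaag

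The second set shows lncRNAs that were higher in nuclei and lncRNAs of which different probes went opposite ways, and it holds no capitals.
Tug1, chr11:3540471-3540530, minus strand: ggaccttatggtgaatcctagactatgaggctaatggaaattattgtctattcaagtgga
Kcnq1ot1, chr7:150434020-150434079, minus strand: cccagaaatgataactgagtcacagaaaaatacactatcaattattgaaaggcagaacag
Meg3, probe higher in nuclei, chr12:110809678-110809737, plus strand: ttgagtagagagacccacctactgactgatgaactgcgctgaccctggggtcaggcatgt
Meg3, probe higher in cytoplasm, chr12:110799558-110799617, plus strand: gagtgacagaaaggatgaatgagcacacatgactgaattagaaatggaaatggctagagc
Airn, probe higher in nuclei, chr17:12944784-12944843, plus strand: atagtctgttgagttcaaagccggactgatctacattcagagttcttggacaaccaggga
Airn, probe higher in cytoplasm, chr17:13008078-13008137, plus strand: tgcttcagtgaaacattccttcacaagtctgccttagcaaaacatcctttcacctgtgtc

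The third set shows lncRNAs tied to muscle or growth and the regions with the largest differences toward cytoplasm, likewise without capitals.
Gas5, chr1:162966369-162966428, plus strand: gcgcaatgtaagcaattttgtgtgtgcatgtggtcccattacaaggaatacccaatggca
Nctc1, chr7:149739640-149739699, minus strand: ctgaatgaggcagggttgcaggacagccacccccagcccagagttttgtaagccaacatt
Igf2os, chr7:149856156-149856215, plus strand: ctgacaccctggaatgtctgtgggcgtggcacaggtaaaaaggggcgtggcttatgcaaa
Chromosome 7 region, chr7:67009472-67009531, plus strand: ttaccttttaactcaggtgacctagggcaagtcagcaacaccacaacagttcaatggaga
Chromosome 16 region, chr16:3115830-3115889, minus strand: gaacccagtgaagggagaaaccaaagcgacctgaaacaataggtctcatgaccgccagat

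Coding transcripts were spread over both fractions in TA, whereas probes for lncRNAs leaned to the cytoplasm. Of 43699 probes tested, 19880 (45.5%) differed between fractions at an adjusted p under 0.05 (limma, Benjamini-Hochberg), 6755 (15.5%) higher in nuclei and 13125 (30.0%) higher in cytoplasm. The median difference, nuclei minus cytoplasm, was -0.22 on the log2 scale. Among probes past the threshold, 5050 differed by more than 2-fold toward nuclei and 10474 toward cytoplasm. Among probes measured on all 6 arrays, the 3 nuclear and the 3 cytoplasmic values did not overlap for 23832 of 39373 (60.5%). Without TA nuclei 1 the number of probes past the threshold fell to 12947. With the 3 nuclear arrays averaged to 1 sample, it was 1182.

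Of 24652 probes for coding transcripts, 4937 (20.0%) were higher in nuclei and 5553 (22.5%) in cytoplasm, with a median difference of 0.08. Of 12607 probes for lincRNA regions, which are intergenic stretches that the array design tiles on 1 or both strands, 1124 (8.92%) were higher in nuclei and 5251 (41.7%) in cytoplasm, with a median of -0.66. Annotated lncRNAs had 83 of 1336 probes (6.21%) higher in nuclei and 581 (43.5%) in cytoplasm, with a median of -0.73. Pseudogenes lay between these, with 125 of 939 (13.3%) and 263 (28.0%) and a median of 0.00. By the median difference, strong signals were more even, at 0.10 over the brightest 8740 probes and -0.39 over the dimmest 8740. By calls both sets leaned to cytoplasm. Of the brightest, 1137 were higher in nuclei and 2136 in cytoplasm, and of the dimmest 925 and 2116. On all 3 arrays of 1 fraction and on none of the other, 880 probes were well above background in nuclei alone and 2234 in cytoplasm alone, of which 657 and 966 were coding.

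**Figure D2:**
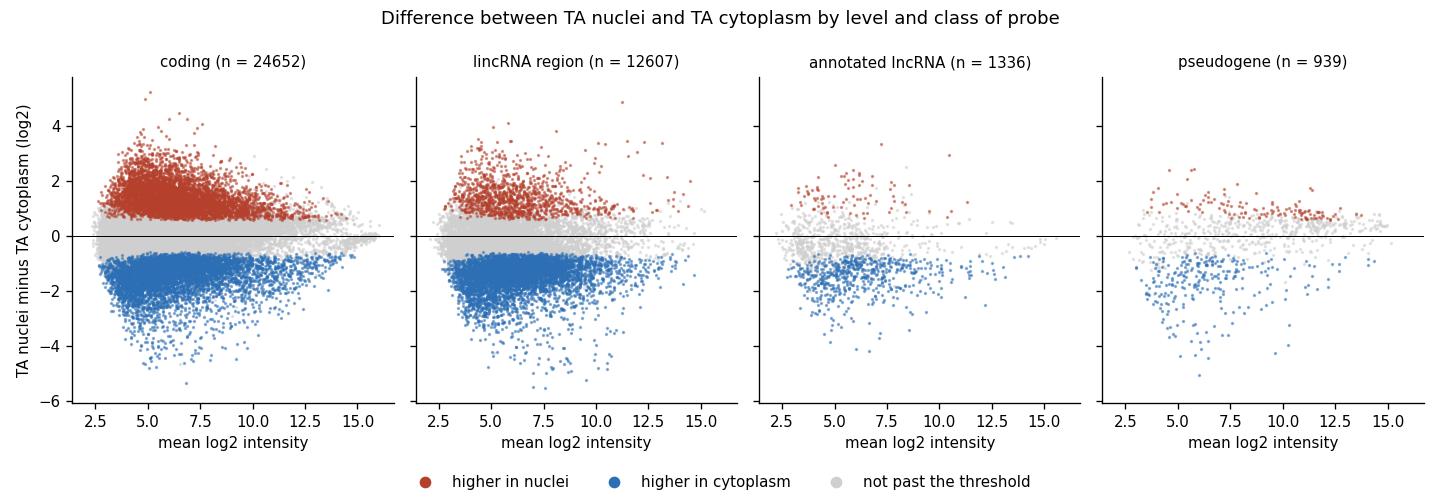
Difference between TA nuclei and TA cytoplasm (y axis, log2) against the mean level of the probe (x axis, log2 intensity) for coding transcripts, lincRNA regions, annotated lncRNAs and pseudogenes; each point is 1 probe and colours mark probes past the threshold. Coding probes lie about 0 with a median of 0.08, and the clouds of lincRNA regions and annotated lncRNAs lie lower, at medians of -0.66 and -0.73.

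Malat1 and Neat1, adjacent genes transcribed from the minus strand of chromosome 19, had a nuclear excess at most of their probes, and no probe of the locus was past the threshold toward cytoplasm. Between chr19:5771425 and chr19:5848475 (mm9) the array held 37 probes tested. On the minus strand 18 of 21 were higher in nuclei, with a median difference of 2.55 and a range of -0.21 to 3.83. On the plus strand, opposite to both genes, 14 of 16 were higher in nuclei, with a median of 2.00 and a range of -0.65 to 4.88. Both strands thus carried nuclear signal where probes lay, which left long stretches of the locus without a probe.

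Neat1 measured 9.05, 8.61 and 9.36 in TA cytoplasm 1, 2 and 3 and 11.95, 11.94 and 11.94 in TA nuclei 1, 2 and 3, a difference of 2.94 ± 0.25 (log2, standard error, as for every difference below; adjusted p = 0.000718). The overlapping NEAT1 probe measured 6.16, 5.72 and 6.68 in cytoplasm and 10.01, 10.09 and 9.95 in nuclei, a difference of 3.83 ± 0.28 (adjusted p = 0.000636). The nuclear values of both probes lay within 0.2 of each other and far above all cytoplasmic ones. The plus-strand probe beside them measured 11.41, 9.67 and 10.64 in cytoplasm and 14.05, 14.07 and 13.86 in nuclei, a difference of 3.42 ± 0.42 (adjusted p = 0.00131). The size of a difference depended on the background correction: with the normexp method 44 of 100 named differences moved by over 1.5 times, and the calls this ended are given beside them.

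At Malat1 the minus-strand probe of the reverse region measured 8.12, 9.08 and 9.11 in cytoplasm and 12.15, 12.15 and 12.05 in nuclei, a difference of 3.35 ± 0.31 (adjusted p = 0.000771). Facing it, the plus-strand probe of the forward region measured 9.89, 7.76 and 8.83 in cytoplasm and 13.62, 13.79 and 13.70 in nuclei. That was a difference of 4.88 ± 0.49 (adjusted p = 0.000906), the largest of the locus. The probe that the array names Malat1 measured 6.21, 8.67 and 8.69 in cytoplasm and 9.13, 9.59 and 9.50 in nuclei. Its groups did not overlap, but TA cytoplasm 1 lay far below the other cytoplasmic arrays and the difference of 1.55 ± 0.64 did not pass the test (adjusted p = 0.0819). Without TA cytoplasm 1 it was 0.73 and passed (adjusted p = 0.0285). A probe named NEAT2, another name of Malat1, differed by 2.11 ± 0.24.

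**Figure D3:**
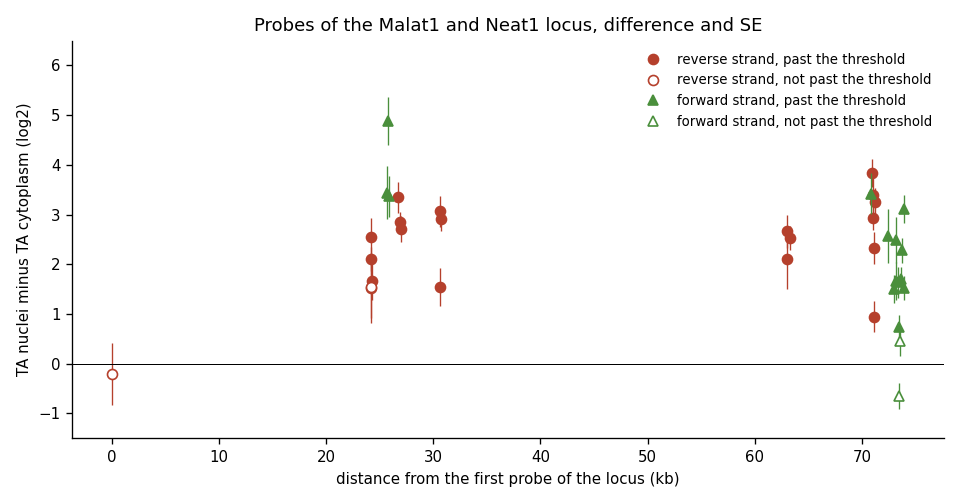
Difference between TA nuclei and TA cytoplasm (y axis, log2, bars are standard errors) of the probes of the Malat1 and Neat1 locus against the distance from its first probe (x axis, kb), by strand; open points did not pass the test. Most points of both strands lie above 0, and the highest, at 4.88, is on the strand opposite to Malat1.

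Other lncRNAs with known roles at chromatin also had probes higher in nuclei. Tug1, which takes part in silencing by Polycomb complexes, measured 3.12, 2.85 and 3.44 in cytoplasm and 5.19, 5.34 and 5.32 in nuclei. No cytoplasmic array was well above background for Tug1, so the nuclear level was at least 3.94-fold higher (adjusted p = 0.00106). Kcnq1ot1, which silences an imprinted domain in cis, measured 5.37, 4.43 and 4.23 in cytoplasm and 7.07, 7.19 and 6.98 in nuclei, a difference of 2.41 ± 0.32 (adjusted p = 0.00172), and a further probe of it differed by 2.02 ± 0.37. The nuclear values of both RNAs lay above all cytoplasmic ones. Xist, the RNA that coats the inactive X chromosome, measured 5.90, 7.25 and 7.13 in cytoplasm and 8.44, 8.45 and 8.57 in nuclei, a difference of 1.73 ± 0.37 (adjusted p = 0.00812). In the fit over 18 arrays its adjusted p was 0.0827. Tug1 and Xist had further probes on the array whose values are not given, so each is described by the probe shown.

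For Meg3 and Airn, imprinted lncRNAs, the probes of the same name went opposite ways. The upper Meg3 probe measured 6.4, 6.4 and 5.1 in cytoplasm and 7.5, 7.5 and 7.3 in nuclei, a difference of 1.48 ± 0.37 (adjusted p = 0.0151), which without TA nuclei 1 was 1.43 with an adjusted p of 0.0510. The Meg3 probe nearer the start of the chromosome measured 5.73, 5.35 and 6.64 in cytoplasm and 4.15, 4.54 and 4.38 in nuclei, a difference of -1.55 ± 0.35 (adjusted p = 0.00977), or -0.99 on the deposited values (adjusted p = 0.124). Neither probe's groups overlapped. A further Meg3 probe, not well above background on any cytoplasmic array, was at least 2.07-fold higher in nuclei (adjusted p = 0.017). That call was lost without TA cytoplasm 2, TA nuclei 2 or TA nuclei 3 (adjusted p of 0.0543, 0.0560 and 0.0594), with array weights (0.0606) and with the normexp background, where the difference was 0.23 (0.0912). Airn had a probe with 7.09, 8.03 and 7.73 in cytoplasm and 9.41, 9.60 and 9.38 in nuclei, a difference of 1.85 ± 0.28 (adjusted p = 0.00259). Its other probe measured 11.71, 11.83 and 11.16 in cytoplasm and 10.39, 10.51 and 10.47 in nuclei, a difference of -1.11 ± 0.25 (adjusted p = 0.00951), and without scaling between arrays -0.63 with an adjusted p of 0.134. A further Airn probe, at chr17:13008303-13008362 beside the latter, was not well above background on any cytoplasmic array and was at least 2.15-fold higher in nuclei (adjusted p = 0.00289). With the normexp background its difference was 0.25 and the call was lost (adjusted p = 0.0547). Which transcript each probe met was not tested.

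A further set of lncRNAs had probes higher in cytoplasm. Gas5, a spliced host of small nucleolar RNAs that is tied to growth arrest, measured 12.52, 12.17 and 11.51 in cytoplasm and 10.75, 10.89 and 10.80 in nuclei, a difference of -1.25 ± 0.29 (adjusted p = 0.0112). Without scaling this Gas5 probe differed by -0.80 with an adjusted p of 0.0747. Other Gas5 probes went the other way: one differed by 1.35 ± 0.36 (adjusted p = 0.018), with adjusted p of 0.0627, 0.0510 and 0.0588 without TA cytoplasm 2, TA nuclei 2 and TA nuclei 3, and the remaining one by 1.41 ± 0.51 without passing the test (adjusted p = 0.0556), TA cytoplasm 1 lying close to the nuclear arrays. Igf2os, transcribed opposite to the growth factor gene Igf2, measured 10.76, 10.40 and 9.62 in cytoplasm and 8.75, 8.88 and 8.97 in nuclei, a difference of -1.39 ± 0.32 (adjusted p = 0.0102). Gnasas1, antisense to the imprinted Gnas locus, measured 6.09, 6.42 and 5.66 in cytoplasm and 3.96, 4.57 and 4.33 in nuclei, a difference of -1.77 ± 0.28 (adjusted p = 0.00292). None of these groups overlapped.

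Nctc1, a non-coding RNA made from a muscle enhancer near Igf2 and H19, was higher in nuclei, with 11.15, 10.73 and 10.14 in cytoplasm and 11.53, 12.17 and 12.09 in nuclei. Its difference of 1.25 ± 0.32 (adjusted p = 0.0165) had an adjusted p of 0.0622 without TA nuclei 2, of 0.0562 without TA nuclei 3 and of 0.0754 on the deposited values. Pvt1, a neighbour of the Myc gene, measured 8.41, 7.89 and 7.37 in cytoplasm and 6.44, 6.51 and 6.89 in nuclei. The difference for Pvt1 was -1.27 ± 0.31 (adjusted p = 0.0132), and without TA nuclei 1 it was -1.17 with an adjusted p of 0.0532. On the deposited values it was -0.83 (adjusted p = 0.0512). Firre, which is retained on chromatin in other cells, measured 8.92, 10.32 and 9.33 in cytoplasm and 8.19, 8.32 and 8.28 in nuclei, a difference of -1.26 ± 0.36 (adjusted p = 0.0244). Firre lost its call without any single nuclear array (adjusted p of 0.0734, 0.0617 and 0.0626 without TA nuclei 1, 2 and 3) and with scaling to the 75th percentile (-0.96, adjusted p = 0.0552), without scaling (-0.87, adjusted p = 0.127) and without the signal filter (-1.11, adjusted p = 0.0522). H19, an imprinted lncRNA abundant in muscle, had 7 probes with differences of -0.65 to 0.54, and none passed the test. Of the other lncRNAs in the lists of retained RNAs and of RNAs the study followed, Snhg11 had a difference of -0.91 ± 0.23, toward cytoplasm (adjusted p = 0.0166), a call lost without scaling (adjusted p = 0.0560), without TA nuclei 1 (0.0719) and without TA nuclei 3 (0.0708). Tsix, antisense to Xist, differed by -0.83 and did not pass the test (adjusted p = 0.100). Dancr, Mir22hg, Mirg, Peg13, Gt(ROSA)26Sor, Gm16062, 1110020A21Rik and 2310065F04Rik differed by -0.75 to 1.17 with no probe past the threshold. Pvt1, Firre and Snhg11 had further probes on the array whose values are not given, so each is described by the probe shown.

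**Figure D4:**
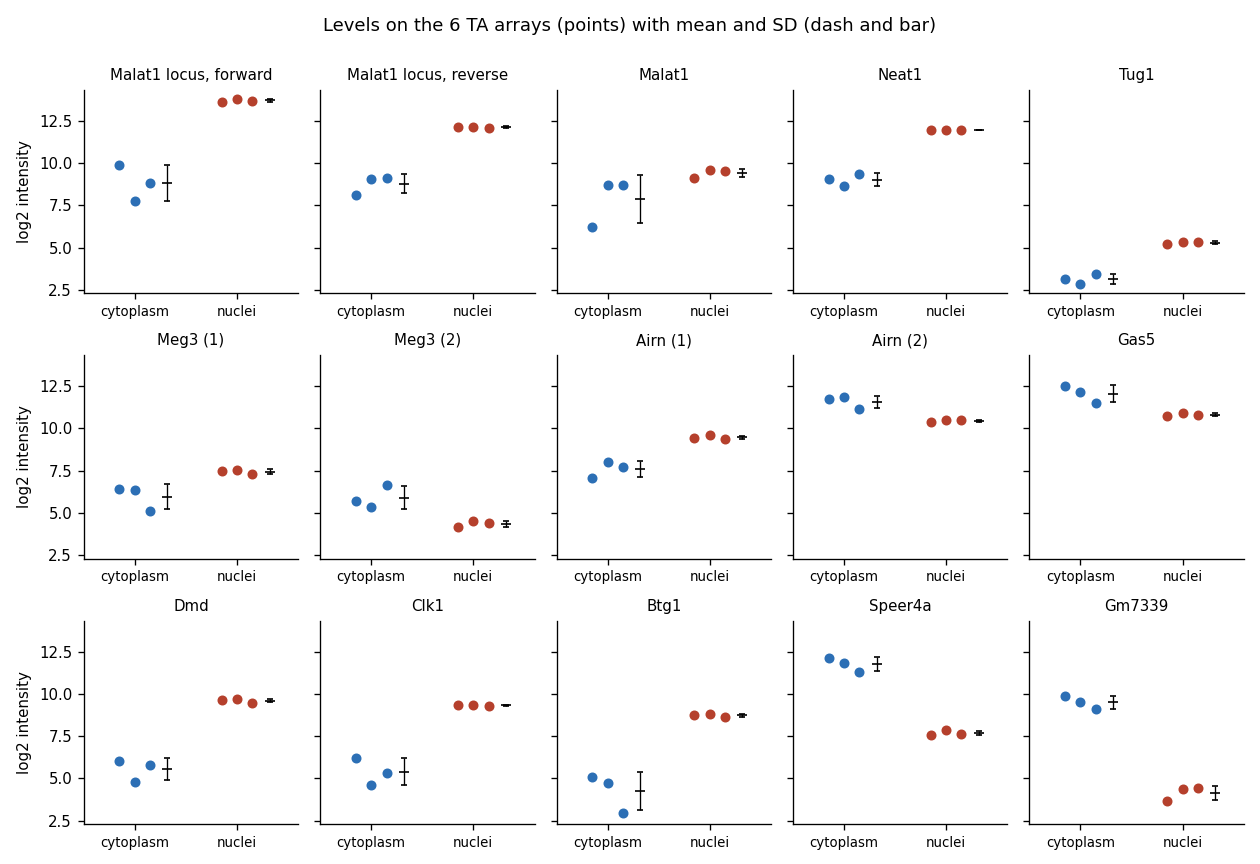
Log2 intensity (y axis) of 15 probes on the 3 TA cytoplasm and the 3 TA nuclei arrays, with the mean and standard deviation of each group. Neat1 and Clk1 lie higher in nuclei with no overlap, by 2.94 and 3.93, and Speer4a and Gm7339 lie lower in nuclei, with differences of -4.07 and -5.34.

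Each annotated lncRNA, lincRNA region and pseudogene with a tested probe was placed by its probes as nuclear, cytoplasmic, mixed or without a call. Of 6332 transcripts, 657 were nuclear, 3378 cytoplasmic, 219 mixed and 2078 without a call. Annotated lncRNAs split into 72 nuclear, 557 cytoplasmic, 5 mixed and 580 without a call of 1214. LincRNA regions split into 465, 2584, 213 and 1050 of 4312, and pseudogenes into 120, 237, 1 and 448 of 806. Without TA nuclei 2 the nuclear transcripts numbered 421. In each class more transcripts were cytoplasmic than nuclear. Of 1001 lincRNA regions with tested probes on both strands, the median difference was below 0 on both strands in 700, above 0 on both in 128 and opposite in 173.

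Outside the Malat1 and Neat1 locus, and among lincRNA regions well above background on at least 1 array of each fraction, the largest nuclear differences were those of a pair of neighbours on chromosome 6. Region chr6:31078802-31079644 on the minus strand differed by 4.11 ± 0.38, and region chr6:31115515-31168433 on the same strand by 3.47 ± 0.25. Next came region chr8:70603786-70604243 on the minus strand, which differed by 3.42 ± 0.63. Toward cytoplasm the differences were larger. The region chr7:67001975-67050575 on the plus strand measured 10.88, 10.30 and 9.85 in cytoplasm and 4.16, 4.81 and 5.50 in nuclei, a difference of -5.52 ± 0.41. Its neighbour chr7:66926500-66952100 differed by -5.47 ± 0.38. The region chr16:3111550-3130500 on the minus strand measured 12.71, 12.24 and 11.50 in cytoplasm and 6.88, 7.03 and 6.90 in nuclei, a difference of -5.21 ± 0.32, and chr1:85117750-85129200 differed by -4.96 ± 0.30. The Gm2005 transcript differed by -5.05 ± 0.66 (adjusted p = 0.00155). Cytoplasmic and nuclear values of the chromosome 7 and 16 regions lay apart by more than the whole spread within either fraction.

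Coding genes with large nuclear differences included Btg1, Ogt, Clk1 and Dmd, and Svil and Apold1, not well above background in cytoplasm, lay higher still and are given as bounds. Btg1, an anti-proliferative cofactor, measured 5.06, 4.71 and 2.97 in cytoplasm and 8.75, 8.79 and 8.63 in nuclei, a difference of 4.48 ± 0.51 (adjusted p = 0.00112), though another Btg1 probe differed by 1.20 and did not pass the test (adjusted p = 0.112). Ogt, the enzyme that attaches N-acetylglucosamine to nuclear and cytoplasmic proteins, measured 4.78, 4.02 and 5.37 in cytoplasm and 8.98, 9.00 and 8.96 in nuclei, a difference of 4.26 ± 0.34 (adjusted p = 0.00064). Clk1, a kinase of splicing factors, measured 6.20, 4.62 and 5.34 in cytoplasm and 9.33, 9.34 and 9.28 in nuclei, a difference of 3.93 ± 0.39 (adjusted p = 0.000876). The nuclear arrays of all these probes lay at least 2 log2 units above the highest cytoplasmic array. Pde4dip, an anchor at the Golgi and centrosome, measured 6.10, 5.42 and 4.51 in cytoplasm and 9.19, 9.22 and 8.85 in nuclei, a difference of 3.74 ± 0.40, and its other 3 probes were also higher in nuclei, by 1.16 to 1.27. Ier3, an early response gene, measured 4.09, 3.76 and 2.05 in cytoplasm and 6.49, 6.68 and 6.71 in nuclei, a difference of 3.33 ± 0.50 (adjusted p = 0.00237). Cyp4b1, a cytochrome P450, differed by 3.31 ± 0.40 (adjusted p = 0.00131), and the predicted transcript XM_001480574 by 3.52.

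Dmd, the gene of dystrophin and among the longest genes known, showed how far probes of 1 gene could differ. A Dmd probe at chrX:81132417 measured 6.05, 4.80 and 5.79 in cytoplasm and 9.62, 9.70 and 9.49 in nuclei, a difference of 4.06 ± 0.34 (adjusted p = 0.000714). A Dmd probe at chrX:80596782 differed by 2.40 ± 0.37 (adjusted p = 0.00257), and the remaining Dmd probes differed by 0.91 and -0.48 and did not pass the test. Svil, an actin-binding protein of the membrane skeleton, had a probe that no cytoplasmic array measured well above background, and its nuclear level was at least 25.9-fold higher, whereas other Svil probes differed by 2.11 and 1.14. Apold1, an endothelial early response gene, was at least 20.0-fold higher in nuclei by the same measure.

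Over all genes, non-coding ones included and each taken by its brightest probe, 13304 of 29007 passed the threshold (45.9%). Of all genes 4274 (14.7%) were higher in nuclei and 9030 (31.1%) in cytoplasm, with a median difference of -0.22. The lists below are counted on the same probes and read against these shares. Coding probes alone had 20.0% toward nuclei and 22.5% toward cytoplasm, with a median of 0.08. Of 27 immediate early genes, which are switched on within minutes of a stimulus, 20 were higher in nuclei and 1 in cytoplasm, with a median difference of 1.67. Dusp1, a phosphatase that shuts off MAP kinases, measured 7.49, 7.47 and 7.48 in cytoplasm and 10.12, 10.28 and 10.33 in nuclei, a difference of 2.76 ± 0.20 (adjusted p = 0.000626). Nr4a1, an orphan nuclear receptor, measured 9.19, 10.49 and 9.79 in cytoplasm and 11.04, 11.77 and 12.16 in nuclei, a difference of 1.83 ± 0.41 (adjusted p = 0.00958). Within the slide that held the 3 nuclear arrays and TA cytoplasm 2, the Nr4a1 difference was 1.14 and did not pass the test (adjusted p = 0.109).

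Genes of RNA processing leaned the same way. Of 40 splicing factors and CLK kinases 21 were higher in nuclei and 1 in cytoplasm, with a median of 1.04, or 0.75 without TA cytoplasm 1. Of 27 genes of the nuclear pore and RNA export, 8 were higher in nuclei and 3 in cytoplasm (median 0.75, or 0.19 without TA cytoplasm 1). Tpr, the filament of the pore's nuclear basket, measured 6.06, 5.30 and 5.91 in cytoplasm and 8.20, 8.35 and 8.35 in nuclei, a difference of 2.55 ± 0.26. Nup107, part of the pore's outer ring, went the other way, at -1.29 ± 0.22 (adjusted p = 0.00369), or -0.81 without scaling, where the call was lost (adjusted p = 0.0508). Of 22 genes of the nuclear envelope and its anchors, 6 were higher in nuclei and 1 in cytoplasm (median 0.68, or 0.13 without TA cytoplasm 1). Akap9, a centrosomal scaffold, differed by 2.41 ± 0.25 (adjusted p = 0.000933), and Syne1, the giant nesprin that anchors nuclei, by -1.18 ± 0.27 (adjusted p = 0.0106).

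Among the circadian clock genes 8 of 17 were higher in nuclei and 0 in cytoplasm, with a median of 0.80; the count was 3 without TA nuclei 2 and 11 without TA cytoplasm 1. Per1, a repressor of the clock, measured 5.13, 7.53 and 7.36 in cytoplasm and 8.79, 8.95 and 8.89 in nuclei, a difference of 2.20 ± 0.59 (adjusted p = 0.0195), which was 1.46 without TA cytoplasm 1, the lowest array. Tef, an output factor of the clock, differed by 1.05 ± 0.25 (adjusted p = 0.0128). Per1 and Tef lost the call without TA nuclei 2, with adjusted p of 0.0507 and 0.0530. Of 23 heat shock genes 11 were higher in nuclei and 2 in cytoplasm (median 0.93; 6 toward nuclei without TA nuclei 1 and 0 toward cytoplasm without any single nuclear array). Hsp90aa1, the inducible cytosolic HSP90, measured 8.70, 8.65 and 8.76 in cytoplasm and 10.48, 10.48 and 10.35 in nuclei, a difference of 1.73 ± 0.20 (adjusted p = 0.00117), and Hspa8, the constitutive HSP70, differed by 0.94 ± 0.20 (adjusted p = 0.00851).

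Genes of the sarcomere were measured at high level in both fractions, and those past the threshold were higher in nuclei. Of 26 genes of giant and Z-disc proteins 14 were higher in nuclei and 0 in cytoplasm, with a median of 0.86; the count was 7 without TA nuclei 1 or TA nuclei 2 and 22 without TA cytoplasm 1. Neb, the giant ruler of the thin filament, measured 13.30, 12.62 and 12.90 in cytoplasm and 14.28, 14.27 and 14.10 in nuclei, a difference of 1.28 ± 0.25 (adjusted p = 0.00555). Myom1, an M-band protein, measured 9.75, 8.52 and 9.28 in cytoplasm and 10.78, 10.87 and 10.57 in nuclei, a difference of 1.56 ± 0.33 (adjusted p = 0.00792), and its relative Myom2 differed by 1.08 ± 0.24 (adjusted p = 0.00943). In these genes every nuclear array lay above every cytoplasmic one.

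Of 17 fast contractile genes 5 were higher in nuclei and 0 in cytoplasm (median 0.45, or 0.79 without TA cytoplasm 1), with 2 without TA nuclei 1 or TA nuclei 2 and 10 without TA cytoplasm 1. Myh2, the myosin heavy chain of type 2A fibers, measured 10.69, 10.20 and 11.47 in cytoplasm and 12.05, 12.29 and 12.27 in nuclei, a difference of 1.42 ± 0.34 (adjusted p = 0.012). Of 13 slow contractile isoforms 2 were higher in nuclei and 0 in cytoplasm (median 0.86, or 0.37 without TA cytoplasm 1), with 1 without any single nuclear array. Atp2a2, the slow-fiber calcium pump, differed by 1.12 ± 0.22 (adjusted p = 0.00557, and 0.0579 in the fit over 18 arrays). These shares of nuclear calls exceeded the 14.7% of all genes in the fast list and were close to it in the slow list.

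Excitation and calcium handling held genes on both sides. Of 21 genes 4 were higher in nuclei and 1 in cytoplasm (median 0.46, or 0.71 without TA cytoplasm 1), with 2 toward nuclei without any single nuclear array and 12 without TA cytoplasm 1. Ryr1, the calcium release channel of the sarcoplasmic reticulum, measured 10.68, 9.58 and 9.80 in cytoplasm and 11.70, 11.81 and 11.70 in nuclei, a difference of 1.72 ± 0.31 (adjusted p = 0.00462). Kcna7, a potassium channel of muscle, measured 12.55, 12.23 and 11.60 in cytoplasm and 10.21, 10.39 and 10.25 in nuclei, a difference of -1.84 ± 0.29 (adjusted p = 0.00261). In the dystrophin glycoprotein complex 5 of 17 were higher in nuclei and 1 in cytoplasm (median 0.47). Of 14 neuromuscular junction genes 0 were higher in nuclei and 2 in cytoplasm (median 0.29, or 0.02 without TA cytoplasm 1), and 0 in cytoplasm without TA nuclei 1.

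Of 16 myogenic factors and Mef2 genes, 0 were higher in nuclei and 3 in cytoplasm (median 0.09, or -0.08 without TA cytoplasm 1). Myod1, the myogenic master factor, measured 11.56, 10.99 and 10.25 in cytoplasm and 9.39, 9.51 and 9.53 in nuclei, a difference of -1.45 ± 0.34 (adjusted p = 0.0111). The Myod1 values did not overlap. Of 21 atrophy and FoxO genes, 4 were higher in nuclei and 2 in cytoplasm (median 0.65), with 2 toward nuclei without TA nuclei 1 or TA nuclei 2 and 10 without TA cytoplasm 1. Foxo1, which drives atrophy genes, differed by 1.85 ± 0.23 (adjusted p = 0.00144), and Trim55, a ubiquitin ligase of the sarcomere, by -1.52 ± 0.30 (adjusted p = 0.00616).

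Metabolic and housekeeping lists showed shares toward nuclei near or somewhat above the share of all genes and almost no calls toward cytoplasm. Glycolysis and glycogen had 6 of 24 higher in nuclei and 0 in cytoplasm (median 0.49), with 2 without TA cytoplasm 2 and 14 without TA cytoplasm 1. Ppp1r3c, which targets a phosphatase to glycogen, differed by 1.68 ± 0.32 (adjusted p = 0.00531). Fatty acid oxidation had 4 of 22 and 0 (median 0.59), with 1 without TA nuclei 1 and 8 without TA cytoplasm 1, and its member Acadl, the long-chain acyl-CoA dehydrogenase, differed by 1.78 ± 0.34 (adjusted p = 0.00556). The Krebs cycle had 6 of 23 and 0 (median 0.38), with 0 without any single nuclear array. Nuclear-encoded respiratory chain genes had 18 of 82 and 0 (median 0.52), with 3 without TA nuclei 2 and 42 without TA cytoplasm 1. Proteasome subunits had 6 of 37 and 0 (median 0.45, or 0.07 without TA cytoplasm 1), with 0 without TA nuclei 1 or TA nuclei 2 and 11 without TA cytoplasm 3. The counts of these lists thus turned on single arrays.

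Cytosolic ribosomal proteins had 18 of 82 higher in nuclei and 1 in cytoplasm (median 0.56, or 0.17 without TA cytoplasm 1), with 2 toward nuclei without TA nuclei 2. Rps4l differed by 1.19 ± 0.23 and Rpl21 by -1.03 ± 0.21 (adjusted p = 0.00692), a call lost without scaling (-0.83, adjusted p = 0.0556). Mitochondrial ribosomal proteins had 8 of 78 and 3 (median 0.28, or 0.12 without TA cytoplasm 1), with 23 toward nuclei and 6 toward cytoplasm without TA cytoplasm 1, and 0 toward cytoplasm without TA cytoplasm 2 or any single nuclear array. Genes encoded in the mitochondrial genome, whose RNA is made outside the nucleus, had 0 of 6 higher in nuclei and 1 in cytoplasm (median -0.24, or -0.12 without TA cytoplasm 1), and 3 in cytoplasm without TA cytoplasm 3. That gene was ND3, a subunit of respiratory complex I, with 13.61, 13.36 and 13.20 in cytoplasm and 12.34, 12.39 and 12.63 in nuclei, a difference of -0.93 ± 0.22 (adjusted p = 0.0124). The call for ND3 was lost without TA nuclei 1 (adjusted p = 0.0533) or TA nuclei 2 (adjusted p = 0.0519) and without scaling (-0.70, adjusted p = 0.0707). The nuclear arrays thus still gave ND3 a signal above 12. Of 41 replication-dependent histone genes 3 were higher in nuclei and 4 in cytoplasm (median 0.32, or -0.09 without TA cytoplasm 1). The histone calls toward nuclei numbered 1 without any single nuclear array and 7 without TA cytoplasm 1. H2bc6 differed by -2.03 ± 0.32 (adjusted p = 0.00265).

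Genes of some other cell types differed between fractions. Of 19 endothelial genes 14 were higher in nuclei and 0 in cytoplasm, with a median of 1.50. Sox17, an endothelial transcription factor, measured 5.13, 4.40 and 4.79 in cytoplasm and 7.91, 7.97 and 7.74 in nuclei, a difference of 3.10 ± 0.25 (adjusted p = 0.000665), and Aqp1, a water channel, differed by 1.16 ± 0.24. Of 11 pericyte and smooth muscle genes 6 were higher in nuclei and 1 in cytoplasm (median 1.33). Pdgfrb, the receptor that marks pericytes, measured 5.29, 5.22 and 6.98 in cytoplasm and 8.90, 8.96 and 8.77 in nuclei, a difference of 3.04 ± 0.46 (adjusted p = 0.00244).

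Of 18 genes of fibroblasts and connective tissue 10 were higher in nuclei and 0 in cytoplasm (median 0.94). Postn, a matrix protein, differed by 2.55 ± 0.37 and Col3a1, a fibrillar collagen, by 1.04 ± 0.26 (adjusted p = 0.0143, and 0.0530 without TA nuclei 1). Over 37 collagens 6 were higher in nuclei and 8 in cytoplasm (median 0.18, or 0.08 without TA cytoplasm 1), with 11 toward nuclei without TA cytoplasm 1 and 4 toward cytoplasm without TA nuclei 1 or TA nuclei 2. Schwann cell genes had 7 of 14 and 2 (median 1.04), with 4 toward nuclei without TA nuclei 1 or TA nuclei 2. Satellite cell genes had 5 of 13 and 2 (median 1.03, or 0.33 without TA cytoplasm 1), with 3 toward nuclei without TA nuclei 2 or TA nuclei 3. Chodl, a lectin-like membrane protein of satellite cells, differed by 2.99 ± 0.36 (adjusted p = 0.00127).

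Macrophage and leukocyte genes had 1 of 21 higher in nuclei and 8 in cytoplasm (median -0.26, or -0.17 without TA cytoplasm 1), and 4 in cytoplasm without TA nuclei 1 or TA nuclei 3. Their share toward cytoplasm, 38.1%, and their median lay near the 31.1% and -0.22 of all genes, non-coding ones included. Coding probes alone had 22.5% toward cytoplasm, 20.0% toward nuclei and a median of 0.08. Toward nuclei the share was 4.76%, against 14.7% of all genes. Csf1r, the receptor that macrophages need to survive, measured 12.58, 12.28 and 11.66 in cytoplasm and 11.00, 11.10 and 10.96 in nuclei. The Csf1r difference of -1.15 ± 0.28 (adjusted p = 0.0131) was -0.71 without scaling (adjusted p = 0.104). Erythroid genes had 2 of 9 higher in nuclei and 3 in cytoplasm (median 0.24, or 0.11 without TA cytoplasm 1), with 1 and 1 without TA nuclei 2 and 1 in cytoplasm without TA nuclei 3, and the globin gene Hbb-bt differed by 1.31 ± 0.31 (adjusted p = 0.0115). Adipocyte genes had 2 of 10 and 4 (median -0.19, or -0.31 without TA cytoplasm 1), with 1 in cytoplasm without TA cytoplasm 2, TA nuclei 1 or TA nuclei 2. The part of cells around the fibers in these differences was not tested.

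Among lncRNAs that are known to be retained in nuclei, 4 of 12 were higher in nuclei and 4 in cytoplasm (median 0.07, or -0.22 without TA cytoplasm 1), with 2 in cytoplasm without TA nuclei 1 or TA nuclei 3. Of 13 lncRNAs that the study followed, 2 were higher in nuclei and 4 in cytoplasm (median 0.14, or 0.31 without TA cytoplasm 1), with 1 toward nuclei without TA nuclei 2 or TA nuclei 3 and 4 without TA cytoplasm 1; that list was chosen on these and related samples and is not independent evidence of a direction. Of 12 hosts of small nucleolar RNAs 5 were higher in nuclei and 2 in cytoplasm (median 0.91, with 3 toward nuclei without TA cytoplasm 2, TA cytoplasm 3 or TA nuclei 2 and 8 without TA cytoplasm 1). Within that group Snhg12 differed by 2.08 ± 0.22 toward nuclei and Snhg8 was at least 2.46-fold higher in cytoplasm.

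Among coding genes well above background on at least 1 array of each fraction, those with the largest excess in cytoplasm were predicted genes and members of multigene families, whose probes may meet more than 1 transcript. Gm7339 measured 9.90, 9.50 and 9.10 in cytoplasm and 3.68, 4.36 and 4.43 in nuclei, a difference of -5.34 ± 0.31 (adjusted p = 0.000626). Its probe, at chr7:67017127, lies inside the chromosome 7 region named above, on the opposite strand, so both strands there were higher in cytoplasm. The predicted genes 4933402N22Rik, LOC100046987, EG666692 and Gm9758 differed by -4.60, -4.53, -4.51 and -4.47. Gm6401, LOC677460 and Gm3153 followed, at -4.47, -4.33 and -4.31. Of the probes named in this paragraph, those of Gm9758, 4933402N22Rik and LOC100046987 share at least 30 bases with a probe of another name.

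Speer genes, a rodent family known from testis, had 0 of 13 higher in nuclei and 11 in cytoplasm, with a median of -2.83. Speer4a measured 12.12, 11.86 and 11.31 in cytoplasm and 7.59, 7.84 and 7.63 in nuclei, a difference of -4.07 ± 0.27, and Speer4b differed by -4.06. Speer1 measured 9.42, 8.92 and 7.54 in cytoplasm and was not well above background on any nuclear array, so it was at least 21.2-fold higher in cytoplasm. Olfactory and vomeronasal receptors, which act in the sensory epithelia of the nose, had 8 of 650 higher in nuclei and 409 in cytoplasm, with a median of -1.19. Without TA nuclei 3 the count toward nuclei was 4. The array held 1346 of these genes, and 353 were well above background on at least 1 array of each fraction. Their signal was dim, with a median level of 4.42 in cytoplasm and 3.68 in nuclei. Vmn2r33 was at least 15.3-fold higher in cytoplasm. Vmn2r111 measured 11.63, 11.17 and 10.64 in cytoplasm and 9.22, 9.41 and 9.14 in nuclei, a difference of -1.89 ± 0.29. These families are not known for a role in muscle, and what else their probes meet was not tested.

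Zinc finger genes, a large family of DNA-binding proteins, had 61 of 333 higher in nuclei and 57 in cytoplasm, with a median of 0.11, or 0.05 without TA cytoplasm 1. The counts were 36 toward nuclei without TA nuclei 2 and 27 toward cytoplasm without TA nuclei 1. Zfp280d was at least 10.8-fold higher in nuclei, and Zfp640 differed by -4.25 ± 0.45.

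**Figure D5:**
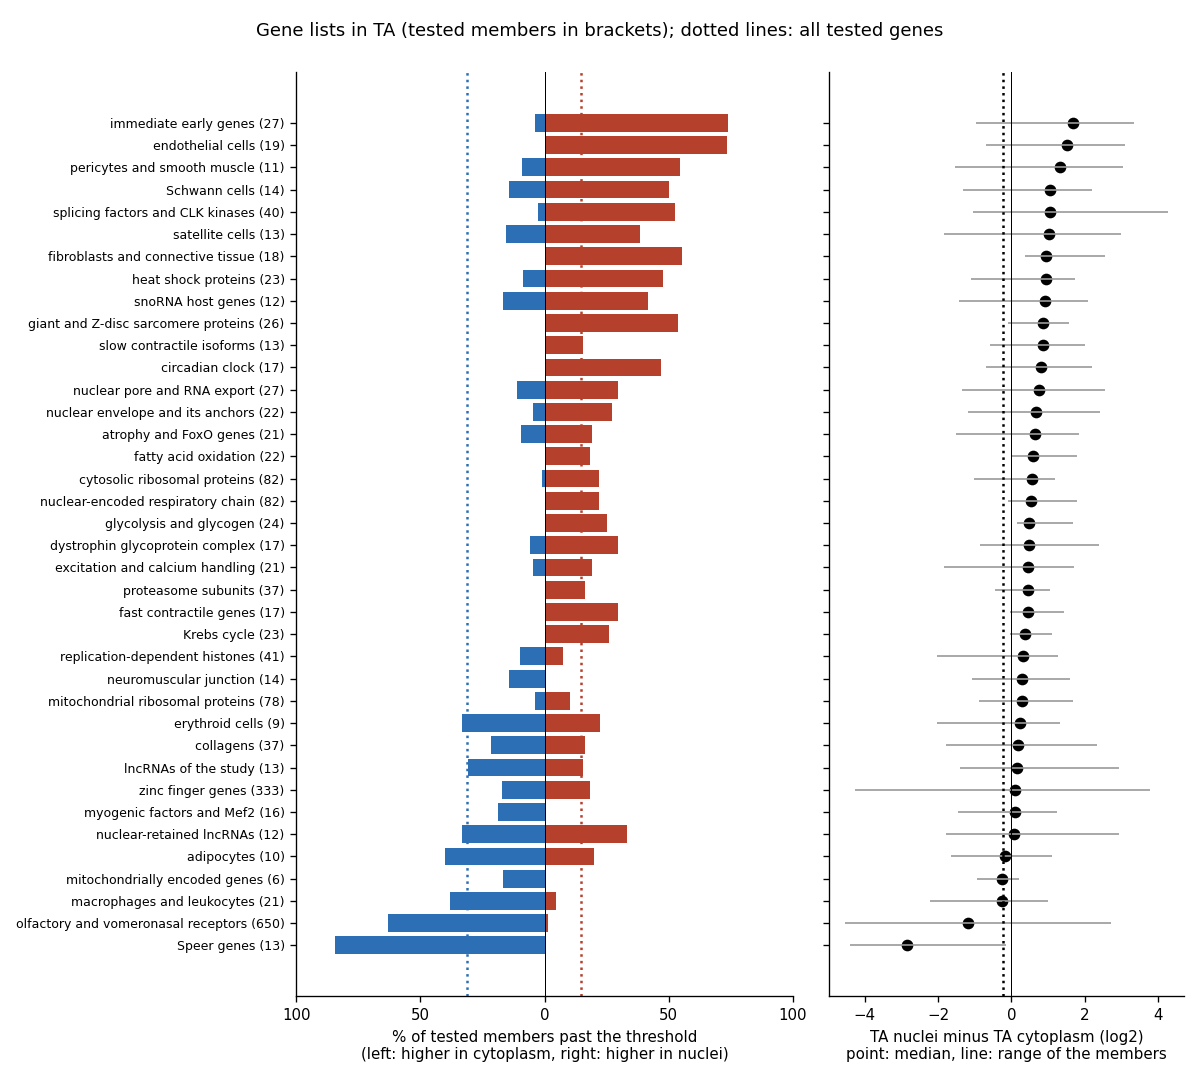
Share of the tested genes of each of 38 lists past the threshold toward nuclei and toward cytoplasm (left panel, percent; dotted lines mark all genes, 14.7% and 31.1%) and the median and range of their differences (right panel, log2; the dotted line marks the median of all genes, -0.22). Immediate early and endothelial genes reach furthest toward nuclei, and Speer genes and olfactory and vomeronasal receptors toward cytoplasm. All genes here include non-coding ones.

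The difference between fractions in TA was then set against the mean of those in EDL and soleus, in a fit over all 18 arrays. Of 40541 probes 1526 (3.76%) differed between muscles in this way, 496 (1.22%) with a higher difference, nuclei minus cytoplasm, in TA and 1030 (2.54%) with a lower one. The higher ones made up 32.5% of the calls, 54.3% with scaling to the 75th percentile and 1.29% without scaling, and the median over all probes was -0.14, 0.04 and -0.72 in the same order. In EDL and soleus the fractions were on different slides, and the TA nuclei shared a slide with neither. With the slide as a random block 2 probes passed, so muscle and slide cannot be told apart. The count was 425, 725 and 635 without TA nuclei 1, 2 and 3, and 3151, 744 and 3880 without TA cytoplasm 1, 2 and 3. It was 770 to 882 without any single EDL or soleus nuclear array and 2417 without soleus cytoplasm 3. With same-numbered pools of a muscle taken as a block it was 215.

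The region chr13:22110479-22116629 on the plus strand differed most surely from the other muscles. Its probe reads as follows, without capitals.
Chromosome 13 region, chr13:22114226-22114285, plus strand: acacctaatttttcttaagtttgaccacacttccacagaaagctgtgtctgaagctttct
The fraction difference of the chr13:22110479-22116629_F probe was 2.26 in TA, -1.08 in EDL and 0.00 in soleus, so TA differed from the mean of the others by 2.80 ± 0.23 (adjusted p = 5.5e-05). Dusp1 was higher in nuclei in each muscle, by 2.79 in TA, 1.26 in EDL and 1.01 in soleus, and TA exceeded the others by 1.65 ± 0.18 (adjusted p = 0.000914). Adgrb2, an adhesion receptor, differed by -1.58 in TA, 0.51 in EDL and 0.57 in soleus (TA minus the others -2.12 ± 0.23, adjusted p = 0.000824). Myh6, the cardiac alpha myosin heavy chain, gave -0.01 in TA, 2.19 in EDL and 2.71 in soleus (-2.45 ± 0.24, adjusted p = 0.000434), and its TA values ran from 6.93 to 7.26 in both fractions together. The transcript ENSMUST00000099683 gave -0.22, -1.68 and -1.69 (1.46 ± 0.16, adjusted p = 0.000824). Region chr5:23195569-23218551 on the minus strand gave -0.46, 0.84 and 1.19 (-1.48 ± 0.17). These muscles differed in slide as well as in name, and the part of the slide was not tested beyond the count above.

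Base composition went with the call. Coding probes higher in nuclei had a median GC content of 36.7%, against 45.0% for those higher in cytoplasm and 45.0% for those not past the threshold. For lincRNA regions the medians were 41.7% and 45.0% in nuclei and cytoplasm. Among genes and regions with more than 1 probe tested, probes past the threshold in opposite directions were found in 208 of 4785 coding genes (4.35%), in 213 of 3308 lincRNA regions (6.44%) and in 6 of 223 annotated lncRNAs and pseudogenes (2.69%). The part of base composition in the differences was not tested.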

How the data were processed

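Agilent single-colour expression arrays of whole mouse genes and lincRNA regions (coordinates in build mm9) were read with 60-base probes after amplification from oligo-dT primers, so RNA without a poly(A) tail is measured only where the primer met it. Per the file headers, the authors' intensity values are background-subtracted, surrogate-filled processed signals of Agilent Feature Extraction 10.7.3.1, deposited without normalization between arrays, 1 file per array. The deposited value table holds normalized intensities for 3687 features only and served as an alternative.

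From these files, non-control spots with a significant positive signal and no outlier flag were taken as log2 intensity, quantile-normalized over the 6 TA arrays and averaged by probe name (55681 names). Probes with at least 2 values in each group of 3 were tested with lmFit and eBayes of limma 3.58.1 in R 4.3.3, nuclei against cytoplasm, with Benjamini-Hochberg adjustment over all probes tested and a threshold of 0.05. The same model over 18 arrays gave the TA difference minus the mean of the EDL and soleus differences. The number of arrays limits the precision, and an exact permutation test of 3 against 3 could not go below 0.1. "At least" folds are set against the lowest signal well above background. Arrays with the same number in different fractions were not paired in these fits. In TA the pools numbered 1 and 2 shared a mouse between fractions. In EDL and soleus all pools of the same number name the same mice, and mouse numbers 3 and 5 recur in TA. The test between muscles leaves these shared mice out.

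Gene names were taken from a RefSeq table of GRCm38.p6 by accession for 26425 probe names, by symbol for 3988, by synonym for 826 and by another accession for 16, and 24426 kept the name of the array file. Named were the 8 coding and 6 non-coding genes with the largest difference in each direction, the 3 with the smallest p in each direction between muscles, and, from each list, members among the 3 brightest or with the largest difference. Of the lists of retained lncRNAs and of lncRNAs the study followed, every member was taken. A gene withheld for evaluation is not reported here. Further probes of named genes, Svil, Apold1 and the genes of the 5 arrays that stood apart were chosen after their values were seen. The members and lists were chosen with earlier results of these data known. On simulated data in which 40 percent of 39373 probes changed, the test between fractions called 67.8% of changes of 1 log2 unit and 93.7% of those of 2. Alternatives covered scaling, background, signal filters, outlier spots, deposited values, replicate and slide blocks, array weights, averaged arrays, Significance Analysis of Microarrays and each array left out. Figures were drawn with matplotlib 3.10.9.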

Additional observations from a re-analysis of the deposited data

Results flagged for a closer look

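Of the 100 probes named as past the threshold between fractions, 95 could be tested over all 18 arrays. For 16 of these the TA difference between nuclei and cytoplasm differed from the mean of those in EDL and soleus (limma adjusted p under 0.05). Over all probes 3.76% did so. Some of the 16 were named for a small p in this same test and others for a large TA difference, so their number is not a result. Probes outside the 100, such as that of Myh6, are not counted among the 16. TA nuclei lay on a slide of their own with TA cytoplasm 2, and only 1 of the 16 kept its call with the slide as a random block, so muscle and slide cannot be told apart. With the replicate block 5 kept the call, and without TA nuclei 1, 2 and 3 the number was 4, 8 and 6.

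A larger nuclear excess in TA was measured for Apold1 (TA minus the others 2.94; 5.05 in TA, 2.09 in EDL and 2.13 in soleus), Sox17 (2.08), Clk1 (2.02), Cyp4b1 (1.82), Dusp1 (1.65) and Dmd (1.46). The region chr13:22110479-22116629_F differed by 2.80 and the globin gene Hbb-bt by 2.56, the latter with 1.32 in TA, -0.79 in EDL and -1.68 in soleus. Among predicted genes that were higher in TA cytoplasm, EG666692, LOC100046987 and Gm9758 differed by 2.34, 2.15 and 1.66.

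Among the 16, values below 0 were measured for Airn (-1.04), Firre (-1.42), Meg3 (-1.60), Adgrb2 (-2.12) and Xist (-3.99). The Airn probe was that at chr17:12944784-12944843 and the Meg3 probe that at chr12:110799558-110799617. Airn and Xist had a smaller nuclear excess in TA. Firre, Meg3 and Adgrb2 were higher in cytoplasm in TA, by differences of -1.27, -1.57 and -1.58. For Xist the difference between fractions was 1.72 in TA, 4.70 in EDL and 6.71 in soleus.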

How the results depend on the processing

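No alternative reversed any of the 100 probes named as past the threshold between fractions that it gave a value for (21 on the deposited values, 78 where a signal well above background was required and 95 to 100 in the others), and 41 of the 100 kept their call in every alternative that gave a value. Calls were lost for 59 of 100 with the nuclear arrays averaged to 1 sample, for 41 of 96 by Significance Analysis of Microarrays, for 8 without scaling, for 3 of 21 on the deposited values, for 6, 7 and 5 without TA nuclei 1, 2 and 3, and for 2 without TA cytoplasm 2. With the normexp background 44 of the 100 differences moved by over 1.5 times and 2 calls were lost. Within the slide of the nuclear arrays the further Kcnq1ot1 probe differed by 1.25, the Meg3 probe nearer the start of the chromosome by -1.02, Firre by -2.07 and Per1 by 1.37, and all kept their call. The 19880 probes past the threshold became 1149 on the deposited values, 1182 when nuclear arrays were averaged and 4896 by Significance Analysis of Microarrays. They ranged from 12947 without TA nuclei 1 to 22009 without TA cytoplasm 3. With the replicate block they numbered 18380, and the block changed the call of none of the 100 probes. Same-numbered arrays of the 2 fractions had deviations correlated at 0.11, -0.08 and 0.12. With 3 arrays in each group these values cannot show whether the arrays pair. Of the calls 34.0% were higher in nuclei, 43.4% without the signal filter and 40.3% without TA cytoplasm 1. The 1526 probes that differed between muscles became 14137 without scaling, 117 on the deposited values, 215 with the replicate block, 2 with the slide as a random block, 187 in TA against EDL alone, and 0 by limma when nuclear arrays were averaged (1292 at an unadjusted p under 0.05). They ranged from 425 without TA nuclei 1 to 3880 without TA cytoplasm 3. Their share with a higher TA difference was 32.5%, and 16.7% where a signal well above background was required and 46.0% without the signal filter. The 657 nuclear lncRNA transcripts became 1033 without the signal filter, 221 on the deposited values, 51 when nuclear arrays were averaged and 121 by Significance Analysis of Microarrays, and ranged from 421 without TA nuclei 2 to 903 without TA cytoplasm 1. The 3378 cytoplasmic ones became 325 on the deposited values, 325 when nuclear arrays were averaged and 1415 by Significance Analysis of Microarrays, and ranged from 2527 to 3727 with 1 array left out. The deposited table holds fewer probes, and averaging leaves fewer samples; otherwise the cause was not tested. The slide as a fixed block was not run between muscles, where it could not be fitted. Signal over background limits dim probes.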
